A study of Mus musculus with 46 samples.

Results

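Transcript levels were compared between 4 cultured mouse thyroid tumour lines labelled Rb/p53/Max mutant (RPM) and 4 labelled Rb/p53 mutant (RP). These are 8 of the 46 samples of the series, and each line was profiled once by RNA-seq. All 8 lines carry conditional mutations of Rb1 and Trp53, which a Cre recombinase introduced in neuroendocrine cells after tamoxifen, and the RPM lines carry a mutation of Max in addition. All lines were grown in the same serum-containing medium, and each group comprises replicates 1 to 4. The sources used here do not give strain, age or the number of clones in a line. All p-values below therefore rest on line-to-line spread, 1 library each. The comparison addresses what the added Max mutation changes in tumour cells already mutant for Rb1 and Trp53.

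MAX is the obligate dimer partner of the MYC proteins, which activate genes of cell growth, above all those of ribosome assembly, and of the MXD proteins and MNT, which repress many of the same genes. These dimers bind an E-box, the palindrome CACGTG, in promoters. MAX also pairs with MGA inside a Polycomb complex (PRC1.6) that keeps meiotic and other germline genes silent in somatic cells. MLX, a related factor, can pair with MNT, MXD1, MXD4 and the nutrient-sensing factors MLXIP and MLXIPL without MAX. C cells, the calcitonin-secreting neuroendocrine cells of the thyroid, are the cell type in which the receptor RET is normally expressed there.

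The 8 libraries held 7829982 to 8498396 reads over 14360 listed genes, so 3 reads were worth 0.353 to 0.383 CPM, reads of a gene scaled to a common library total and the unit of every level below. All 12 C cell markers were listed, and their summed level was 5837 to 7866 CPM in RP lines and 5525 to 23320 CPM in RPM lines. Of the markers of other cell types, 4 of 11 for thyroid follicular cells, 3 of 8 for fibroblasts, 3 of 8 for endothelium and 1 of 9 for immune cells were listed, and the immune marker, Cd68, lay at 1.804 to 4.331 CPM in every line. The listed follicular markers summed to 566 to 671 CPM across RP lines, against 746 to 874 CPM across RPM lines, mostly from Hhex, the fibroblast markers to 29.7 to 161 and 17.6 to 59.7 CPM, and the endothelial markers to 17.3 to 93.6 and 7.804 to 39.95 CPM; the part of these cells in the results was not tested. Of the remaining sets, 2 of 11 pituitary, 1 of 4 parathyroid and 3 of 6 glial markers were listed. Max transcripts were counted over the whole gene, which does not check a mutation that removes part of it, and averaged 54.6 ± 8.8 CPM in the RP group against 88.2 ± 16.2 CPM in the RPM group (SD, n = 4 each), without overlap (two-sided exact permutation p = 0.0286, the smallest that 4 against 4 can give). Rb1 was at 240 ± 41.6 against 169 ± 38.6 CPM (SD, n = 4 each, exact permutation p = 0.0857), and Trp53 at 11.5 ± 3.45 against 13.7 ± 3.61 CPM (SD, n = 4 each, exact permutation p = 0.343).

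Libraries of both groups stood apart. The animal identifier of RPM replicate 1 also stands on a thyroid tumour labelled Rb/p53 mutant and on a pituitary tumour whose title and genotype label disagree, and this line's profile was closest to that of RP replicate 1 (below). Each count is therefore given over all 8 lines and over the 7 lines without RPM replicate 1. RP replicate 4 held transcripts of both Xist (344 CPM), which is made from an inactive X chromosome, and the Y-linked Ddx3y (53.35 CPM). In the other lines only 1 of these was above 1 CPM: Xist was at 5042 CPM in RP replicate 2 and 1958 CPM in RPM replicate 3, where Ddx3y was at 0, and Ddx3y was at 35.5 to 125 CPM elsewhere. RP replicate 4 was also the RP line nearest to the RPM mean at 44 of the 77 genes that rose over 7 lines, and its part in the results below was measured by leaving it out.

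Over all 8 lines, 30 genes were higher and 18 lower in RPM lines (limma, adjusted p under 0.05 over all listed genes), which is 0.209% and 0.125% of the genes tested. Without RPM replicate 1, 77 genes were higher and 184 lower (limma), or 0.536% and 1.28%. All 30 and all 18 genes called over 8 lines were called again in the same direction over 7 lines, and 213 genes were called only without RPM replicate 1. Most calls were large: 24 of 30 and 16 of 18 over 8 lines, and 60 of 77 and 167 of 184 over 7 lines, were at least 2-fold on the log2(CPM + 1) scale. The 4 RPM lines lay above all 4 RP lines for 714 genes (4.97%) and below them for 631 (4.39%), and RPM replicates 2 to 4 lay above all RP lines for 1418 (9.87%) and below for 1572 (10.9%); in either direction this was 9.37% of genes over 8 lines and 20.8% over 7. The calls rest on few lines and on the tool. Of the 8-line fits that left out 1 library, those without RP replicates 1, 2, 3 and 4 made 7, 12, 0 and 17 calls and those without RPM replicates 2, 3 and 4 made 11, 0 and 0. From the 7 lines, leaving out RP replicates 1, 2, 3 and 4 gave 72, 245, 61 and 134 calls, and leaving out RPM replicates 2, 3 and 4 gave 202, 58 and 14. In edgeR's quasi-likelihood test on recovered reads, 1 gene was higher and 2 were lower over 8 lines, and 44 were higher and 103 lower over 7 lines. DESeq2 called 350 and 308 over 8 lines and 602 and 882 over 7 lines.

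The lines themselves differed widely. Profiles of log2(CPM + 1) within the RP group correlated at r = 0.919 to 0.968 across genes, with RP replicates 3 and 4 the most alike, and within the RPM group at r = 0.892 to 0.955, with RPM replicates 3 and 4 the most alike. RPM replicate 1 correlated at 0.951 with RP replicate 1 and at 0.892, 0.900 and 0.910 with RPM replicates 2, 3 and 4. Genes at least 2-fold apart numbered 1388 between RPM replicate 1 and RP replicate 1, against 2372 to 2714 between RPM replicate 1 and the other RPM lines. The first principal component, with 34% of the variance, placed RPM replicates 2 to 4 at 50.5 to 59.2, the RP lines at -55.9 to -13.2 and RPM replicate 1 at -32.3. The median within-group SD of a gene was 0.294 on the log2 scale in RP lines, 0.337 in RPM lines and 0.289 among RPM replicates 2 to 4.

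Each line was next left out in turn, the 200 genes with the smallest p between the remaining lines were taken, and the line was placed on a scale on which 0 is the mean of the remaining RP lines and 1 that of the remaining RPM lines. The held-out RPM replicates 2, 3 and 4 had median positions of 0.892, 0.882 and 0.917. RP replicates 1, 2, 3 and 4 lay at 0.246, 0.244, -0.119 and 0.312. RPM replicate 1 lay at 0.190, within the range of the RP lines, with 34% of its 200 genes nearer the RPM mean. Of these 200 genes 60 were higher in the remaining RPM lines, against 88 to 108 for the other held-out lines. The gene sets behind the medians thus differ in their mix of directions.

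**Figure D1:**
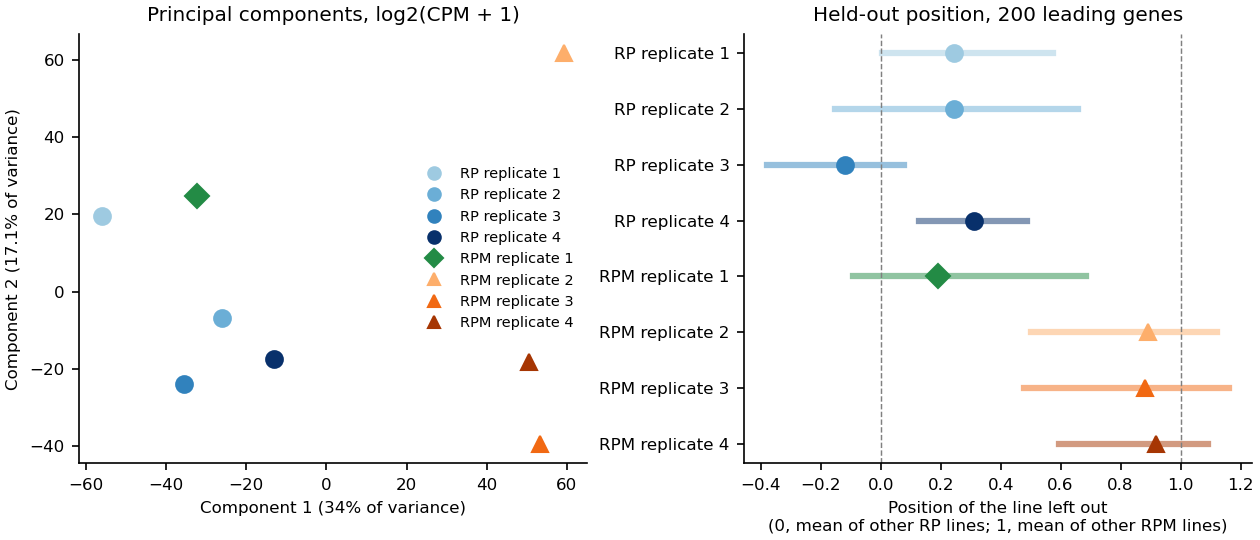
Left, the first and second principal components of log2(CPM + 1) over all listed genes, 1 point per line, with the share of variance on each axis. Right, the position of each line when left out, on a scale from the mean of the other RP lines (0) to the mean of the other RPM lines (1), as the median (symbol) and quartiles (bar) over the 200 genes with the smallest p; RPM replicate 1 lies at 0.190, among the RP lines.

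That median covers genes of opposite behaviour. At the 77 genes higher in RPM replicates 2 to 4, RPM replicate 1, which had no part in their choice, had a median position of 0.682 and lay nearer the RPM mean at 45 (58.4%). It was inside the range of the RP lines at 17 of these and beyond all RP lines on the RPM side at 57. At the 184 genes lower in RPM replicates 2 to 4, its median position was 0.106. It lay nearer the RPM mean at 43 (23.4%) of them, inside the range of the RP lines at 84 and beyond all RP lines on the RPM side at 74. At 75 of the 184 it lay above the RP mean, on the side away from the other RPM lines. By position, replicate 1 was thus nearer the other RPM lines at most of the higher genes and nearer the RP mean at most of the lower ones.

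**Figure D2:**
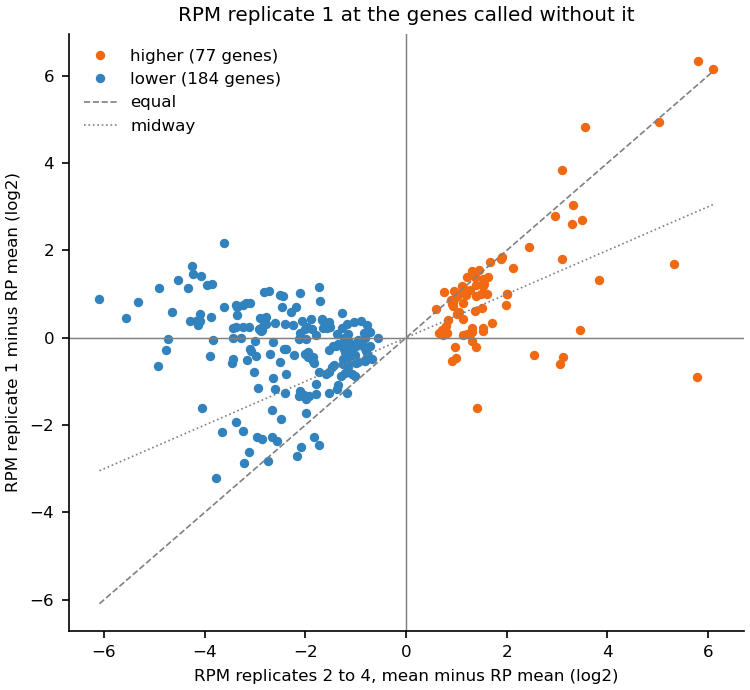
Each point is 1 of the 261 genes called over 7 lines. The horizontal axis gives the mean of RPM replicates 2 to 4 minus the RP mean, and the vertical axis RPM replicate 1, which was not in that fit, minus the RP mean, both as differences of log2(CPM + 1); points near the dashed line moved equally in replicate 1, and the lower genes (left) gather around 0 on the vertical axis.

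Of the 30 genes higher over 8 lines, 4 were listed germline genes and 4, 1 and 2 belonged to the lists of small-subunit assembly, large-subunit assembly and RNA modification. Promoter sequences with an E-box, from RefSeq on GRCm38.p6, are shown for 9 genes on which the results below turn, chosen after their values were seen. Each is written 5′ to 3′ on the strand of the gene, and the capitals mark the E-box. The first 4 are the 200 bases before the annotated start of Tdrd1 (chr19:56826009-56826208, plus strand, the first of 3 entries), Rbm46 (chr3:82876484-82876683, minus strand), Mnt (chr11:74830724-74830923, plus strand) and Cry1 (chr10:85185055-85185254, minus strand), where the E-box begins 11, 34, 123 and 60 bases before the start.
Tdrd1: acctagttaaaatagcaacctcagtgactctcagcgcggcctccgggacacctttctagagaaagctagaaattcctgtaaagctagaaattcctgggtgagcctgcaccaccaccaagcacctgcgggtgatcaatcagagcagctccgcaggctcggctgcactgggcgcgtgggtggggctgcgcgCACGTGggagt
Rbm46: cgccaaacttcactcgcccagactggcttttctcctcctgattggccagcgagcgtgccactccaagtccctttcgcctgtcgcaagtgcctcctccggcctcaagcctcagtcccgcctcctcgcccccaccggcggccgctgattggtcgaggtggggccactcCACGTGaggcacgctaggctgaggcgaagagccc
Mnt: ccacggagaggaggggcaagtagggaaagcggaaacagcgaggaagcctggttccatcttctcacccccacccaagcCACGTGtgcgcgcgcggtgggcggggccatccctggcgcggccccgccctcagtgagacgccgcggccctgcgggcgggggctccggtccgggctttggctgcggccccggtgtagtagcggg
Cry1: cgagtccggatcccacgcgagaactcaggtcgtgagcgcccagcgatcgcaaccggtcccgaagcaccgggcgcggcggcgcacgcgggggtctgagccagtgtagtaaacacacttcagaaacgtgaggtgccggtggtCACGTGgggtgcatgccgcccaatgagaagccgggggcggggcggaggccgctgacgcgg
In the other 5 the E-box lies in an exon of the gene by the GENCODE annotation, and 30 bases around it are shown for Stag3 (chr5:138280327-138280356, plus strand), Ltv1 (chr10:13193092-13193121, minus strand), Utp20 (chr10:88826765-88826794, minus strand), Pus7 (chr5:23783666-23783695, minus strand, the first of 2 entries) and Scfd2 (chr5:74531714-74531743, minus strand). The E-box begins 170 bases before the RefSeq start in Stag3. In Ltv1, Utp20, Pus7 and Scfd2 it begins 28, 37, 28 and 11 bases after the start.
Stag3: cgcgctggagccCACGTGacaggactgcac
Ltv1: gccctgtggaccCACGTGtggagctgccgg
Utp20: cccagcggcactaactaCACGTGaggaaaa
Pus7: ggcgcagcgccgCACGTGtgcgagcccggc
Scfd2: cagagacaggccCACGTGtactgtgttgac

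CACGTG, which reads the same on both strands, was searched in the first RefSeq window of each gene, from 250 bases before to 50 after the start. A window was found for 11002 genes, of which 1123 (10.2%) held it. Of the genes higher over 8 lines, 14 of the 23 with a window (60.9%) held the E-box, and of those lower, 1 of 13 (7.69%). Over 7 lines the shares were 25 of 58 (43.1%) for higher and 7 of 130 (5.38%) for lower genes. Among the genes higher over 7 lines, 23 of 36 (63.9%) had it where RPM replicate 1 lay nearer the RPM mean and 2 of 22 (9.09%) where it lay nearer the RP mean. The 300 higher genes with the smallest p over 8 lines, called or not, held it in 33.6% of windows and the 300 lower ones in 3.91%. A match is a run of letters in this window, not a bound site.

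Other motifs searched on both strands were not more frequent among the higher genes in this way. The E-box variant CAGCTG, which reads the same on both strands, was in 15.1% of all windows, in 1 of 23 (4.35%) of the higher and in 2 of 13 (15.4%) of the lower genes over 8 lines. Over 7 lines it differed by direction in the opposite sense to CACGTG, with 3 of 58 (5.17%) of the higher and 30 of 130 (23.1%) of the lower genes. TCCCGC, the core of an E2F site, was in 36.2% of all windows. Over 8 lines it was in 9 of 23 (39.1%) of the higher and 4 of 13 (30.8%) of the lower genes. Over 7 lines it was in 24 of 58 (41.4%) and 45 of 130 (34.6%). Without RP replicate 4, 3 of 7 higher genes over 8 lines (42.9%) and 12 of 30 over 7 lines (40%) held CACGTG.

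**Figure D3:**
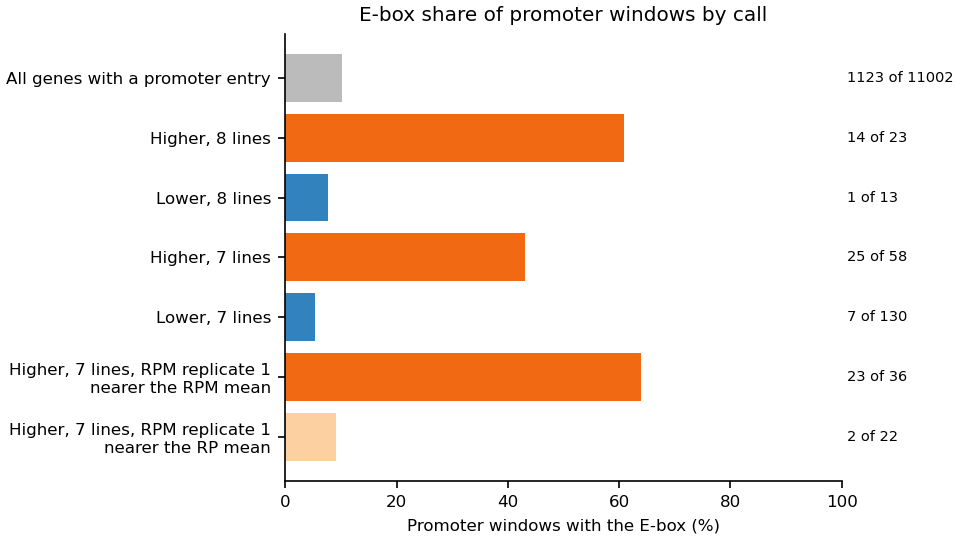
Bars give the percentage of promoter windows that hold the E-box in the named set of genes, with the count at the right, and start at 0. The share is 10.2% over all genes with a window, 60.9% for genes higher over 8 lines and 9.09% for genes higher over 7 lines at which RPM replicate 1 lies nearer the RP mean.

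The shift at these genes was small and alike in all 4 RPM lines. Over the 970 genes with the E-box and a mean of at least 5 CPM, the median difference from the RP mean was 0.119, 0.136, 0.128 and 0.108 on the log2 scale in RPM replicates 1 to 4, and -0.0457 to 0.0260 in the RP lines. Over the 8205 genes without it, the medians of all 8 lines lay between -0.0155 and 0.0173. By this measure RPM replicate 1 was within the range of the other RPM lines, whereas by its whole profile it lay among the RP lines.

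Some genes of the assembly of the small ribosomal subunit rose in RPM lines. Rrp12, an export factor of pre-ribosomes and the gene of this group with the smallest p, was at 57.9, 45.8, 50.7 and 54.0 CPM across RP replicates 1 to 4, against 152, 126, 136 and 132 CPM across RPM replicates 1 to 4. The groups were well apart, and RPM replicate 1 was the highest line (log2 change 1.37, SE 0.12, limma adjusted p = 0.0179). Ltv1, needed for export of the small subunit, was at 39.7, 45.5, 30.2 and 37.9 CPM across RP lines, against 84.0, 92.1, 83.2 and 79.5 CPM across RPM lines, again without overlap. Of the 44 listed genes of the processome and small-subunit assembly, 4 rose over 8 lines (Rrp12, Ltv1, Pwp2 and Rcl1) and these with Utp20 and Nol6 rose over 7, while 0 fell. In 16 of the 44 (36.4%, against 4.97% of all genes) every RPM line lay above every RP line. The median log2 change of the list was 0.34 over 8 lines and 0.32 over 7, against -0.01 and -0.00 for all genes.

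Few assembly factors of the large subunit were called. Of 45 listed genes, Ftsj3, an rRNA-processing methyltransferase homologue, rose over 8 lines, Wdr12 joined it over 7, and 0 fell. All RPM lines lay above all RP lines at 18 of the 45 (40%), and the median log2 change was 0.38 over 8 lines and 0.39 over 7. Enzymes that modify tRNA and rRNA followed: Pus7, a pseudouridine synthase, and Mettl1, which methylates tRNA guanosine, rose over 8 lines, and with Nat10, an RNA acetyltransferase, over 7, out of 46 listed. Over 7 lines this was 6.52% of the list, against 0.536% of all genes. All RPM lines lay above all RP lines at 12 of the 46 (26.1%, against 4.97% of all genes). The median log2 change was 0.27 over 8 lines and 0.29 over 7. Pus7 was at 33.5, 21.8, 21.9 and 34.0 CPM in the RP group against 64.8, 96.1, 82.4 and 67.1 CPM in the RPM group. Nol8, a nucleolar protein outside these lists, rose by 1.56 on the log2 scale (limma adjusted p = 0.0325), but it lies on chromosome 13. There the median difference of expressed genes from the median of all lines was 0.334, 0.249 and 0.272 in RPM replicates 1, 2 and 4. This median was -0.067 in RPM replicate 3 and between -0.341 and 0.0419 in the RP lines. What part this shift has in the change of Nol8 was not tested.

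Neighbouring lists held no calls. In RNA polymerase I and III (36 genes), mitochondrial ribosomal proteins (70 genes) and classical MYC targets (23 genes), 0 genes were called by limma over 8 or 7 lines, and the median log2 changes over 8 lines were 0.21, 0.17 and 0.25. At an unadjusted p under 0.05, 7, 11 and 8 of their members were higher and 1, 1 and 0 lower over 8 lines. The higher members were 19.4%, 15.7% and 34.8% of these lists, against 7.56% of all genes, and 11.1%, 20% and 21.7% of members lay above every RP line in all RPM lines, against 4.97%. The lower members were 2.78%, 1.43% and 0%, against 8.34% of all genes. Without RPM replicate 2 the polymerase median was 0.13, and without RPM replicate 1 the mitochondrial one was 0.11. Without RP replicate 4 the counts of members above every RP line were 19 of 44 for the small subunit, 24 of 45 for the large subunit and 14 of 46 for the modifying enzymes, while 1106 of all genes lay above. The calls fell at the same time: without RP replicate 4, limma called 2, 0 and 0 members of these lists over the 8 lines less 1, and 3, 0 and 1 when RPM replicate 1 was left out as well.

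Among the genes called over 8 lines, the pair with the largest increases were germline genes. Tdrd1, a scaffold of the piRNA pathway, was listed at 0, 0, 0.122 and 4.71 CPM across RP replicates 1 to 4, against 47.3, 78.03, 36.1 and 45.6 CPM across RPM replicates 1 to 4 (log2 change 4.99, SE 0.58, limma adjusted p = 0.0325). Rbm46, an RNA-binding protein needed for entry into meiosis, was at 0.842, 0, 0 and 3.89 CPM in the RP group against 48.4, 16.8, 20.95 and 20.4 CPM in the RPM group (log2 change 3.87, SE 0.56, limma adjusted p = 0.0381). In both genes the lowest RPM line was several times above the highest RP line, which was RP replicate 4. Ccdc36, a factor of meiotic DNA breaks, and Taf4b, a gonadal form of a TFIID subunit, rose as well, by 3.25 and 2.35 on the log2 scale (limma adjusted p = 0.0490 and 0.0338).

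Stag3, the cohesin subunit of meiosis, reached the highest level of the genes named here from this list. It was at 3.01, 1.20, 0 and 46.6 CPM in the RP group against 320, 356, 305 and 273 CPM in the RPM group. The groups did not overlap, but the spread among RP lines left the 8-line change of 6.11 (SE 1.01) at a limma adjusted p of 0.0562, and it was called over 7 lines (adjusted p = 0.0488). For Gm4969, a predicted gene outside the list, RP replicate 4 was likewise the highest RP line and the groups did not overlap. Gm4969 was at 0, 0.120, 0.366 and 24.3 CPM across RP lines, against 202, 162, 104 and 157 CPM across RPM lines. It was also called only over 7 lines (limma adjusted p = 0.0478). Mei1, another gene of meiotic DNA breaks, did not pass either test and was at 0.120, 0.120, 0.122 and 15.3 CPM across RP lines, against 57.3, 38.0, 85.0 and 19.3 CPM across RPM lines.

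Of the 56 germline genes, 26 were listed and the others were not analysed here. Since a gene silent in RP lines is listed only where an RPM line expresses it, neither the count nor the mean level over listed members has weight of its own. By count, 4 rose over 8 lines, 5 over 7, and 0 fell. The mean log2(CPM + 1) of the 26 was 3.7, 3.2, 4.03 and 3.6 in RPM replicates 1 to 4, and 2.18, 2.32, 2.00 and 2.66 in RP replicates 1 to 4, RP replicate 4 being the highest of its group. Without RP replicate 4, 5 members rose over the 7 lines left and 6 over the 6 left when RPM replicate 1 was dropped as well. Of the 17 listed genes of the PRC1.6 complex, limma called 0 over 8 or 7 lines. At an unadjusted p under 0.05, 4 were higher (23.5%, against 7.56% of all genes) and 1 lower over 8 lines, and 4 lay above every RP line in all RPM lines (23.5%, against 4.97%).

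**Figure D4:**
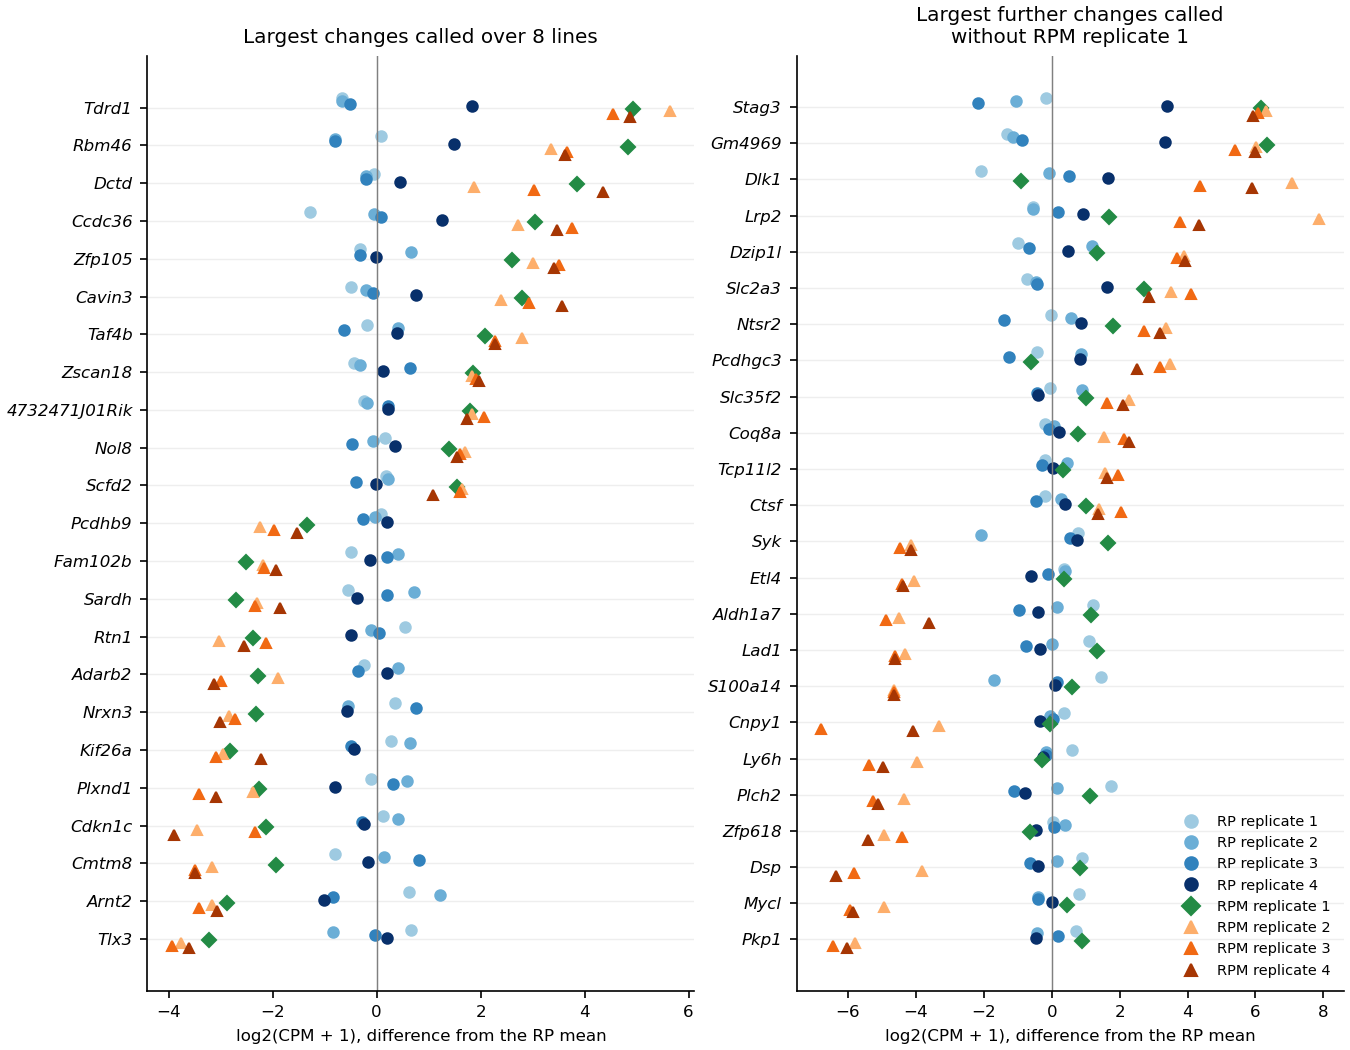
Left, genes with the largest changes called over 8 lines; right, those with the largest further changes called only over 7 lines, named by rule, with 1 gene that is not reported here left out. Each symbol is 1 line, as the difference of its log2(CPM + 1) from the mean of the 4 RP lines. On the left RPM replicate 1 (diamond) lies with the RPM lines, and on the lower right it lies with the RP lines. The choice of genes favours both placements: replicate 1 counted as an RPM line on the left, and the genes on the right were called only without it.

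Within the MYC, MAX and MLX network, Mnt rose and Mycl fell in part of the lines. Mnt, the MAX- and MLX-binding repressor, was at 59.7, 56.9, 54.5 and 52.3 CPM in the RP group against 119, 96.4, 126 and 108 CPM in the RPM group (log2 change 0.99, SE 0.12, limma adjusted p = 0.0325). Mycl, the MYC family member of neuroendocrine tumours, was at 408, 175, 178 and 233 CPM in RP lines, 320 CPM in RPM replicate 1 and 6.61, 2.84 and 3.10 CPM across RPM replicates 2 to 4. RPM replicate 1 was thus inside the RP range, and the other RPM lines were far below it (log2 change without RPM replicate 1 -5.57, SE 0.36, limma adjusted p = 0.00267; over 8 lines -4.07, adjusted p = 0.219). Myc was low throughout, at 2.65 to 5.61 CPM across RP lines, against 0.248 to 2.25 CPM across RPM lines, and did not pass the test (limma adjusted p = 0.124 over 8 lines). Mga, Mxi1 and Max lay above the RP lines in all 4 RPM lines without passing it, with log2 changes of 0.37, 0.78 and 0.68. Mlx, Mlxip, Mlxipl, Mxd1, Mxd3, Mxd4 and Mycn overlapped between the groups over 8 lines.

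Among the other genes higher in all 4 RPM lines were regulators of the circadian clock and of transcription. Cry1, a core repressor of the clock, was at 47.8, 51.1, 43.6 and 44.9 CPM in the RP group against 83.0, 84.3, 105 and 82.5 CPM in the RPM group (limma adjusted p = 0.0375). Klf9, a hormone-responsive zinc finger factor, rose by 1.26 (SE 0.17) on the log2 scale (limma adjusted p = 0.0338). Per3, another clock gene, was lower: it was at 120, 118, 136 and 114 CPM in the RP group against 69.3, 54.2, 46.9 and 54.6 CPM in the RPM group (limma adjusted p = 0.0338). Zfp105 and Dctd, a zinc finger gene and the dCMP deaminase, were under 1 CPM in every RP line and at 6.64 to 13.1 and 3.24 to 22.7 CPM in the RPM lines. These clock and transcription genes are named by rule or after their values were seen and are not a tested list.

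The 18 genes lower over 8 lines included a homeobox factor, a cell cycle inhibitor and several genes of neurons. Rtn1, an endoplasmic reticulum protein of neurons and neuroendocrine cells, was at 214, 135, 152 and 104 CPM in the RP group against 27.4, 17.1, 32.8 and 24.2 CPM in the RPM group (log2 change -2.52, SE 0.26, limma adjusted p = 0.0179). Cdkn1c, the imprinted inhibitor of cyclin-dependent kinases known as p57, was at 83.4, 103, 62.9 and 64.7 CPM in the RP group against 16.7, 6.11, 14.4 and 4.21 CPM in the RPM group (log2 change -2.96, SE 0.41, limma adjusted p = 0.0365). In neither gene did the groups overlap. Tlx3, a homeobox factor of sensory and autonomic neurons, was at 7.58 to 23.1 CPM in RP lines and at 0 to 0.638 CPM in RPM lines (log2 change -3.63, SE 0.34, limma adjusted p = 0.0179).

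Receptors and adhesion molecules of nerve growth were also among the lower genes. Plxnd1, a semaphorin receptor, fell by 2.79 and Nrxn3, a presynaptic adhesion protein, by 2.72 on the log2 scale (limma adjusted p = 0.0375 and 0.0338). Fzd3, a WNT receptor of axon guidance, was at 74.2 to 128 CPM across RP lines, against 41.5 to 47.6 CPM across RPM lines, and Nectin1, a cell adhesion molecule, at 67.9 to 90.6 and 32.8 to 42.2 CPM. Arnt2, a partner of neuronal transcription factors, was at 26.9 to 129 CPM in RP lines and 4.26 to 6.64 CPM in RPM lines (limma adjusted p = 0.0490). Pcdhb9 was called too, but the clustered protocadherins are near copies of each other and counting could split their reads.

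The lists around these genes held few calls. Of 35 listed genes of synaptic adhesion, 1 fell over 8 lines and 3 over 7 (Nrxn3, L1cam and Tenm2), and the median log2 change was -0.72 over 8 lines; 4 members (11.4%, against 4.39% of all genes) lay below every RP line in all RPM lines. Of 53 axon guidance genes, Plxnd1 fell over 8 lines and also Efnb2 over 7, the median log2 change was -0.47 over 8 lines and -0.25 without RP replicate 3, and 8 (15.1%) lay below every RP line. Of 53 homeobox and patterning factors, only Tlx3 was called over 8 or 7 lines, with a median of -0.41, which was -0.66 without RPM replicate 2. Among 55 synaptic vesicle and exocytosis genes, only Rtn1 was called over 8 or 7 lines, with a median of -0.30, which was -0.15 without RP replicate 3 and -0.16 without RPM replicate 2. The mean level of the synaptic adhesion list was 3.37 to 3.61 in all 4 RPM lines and 3.90 to 4.79 on the log2(CPM + 1) scale in the RP lines, so by the list mean RPM replicate 1 lay with its group. At L1cam and Tenm2, called without it, RPM replicate 1 was 0.40 and 0.98 above the RP mean on the log2 scale.

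Genes of epithelial junctions were low in RPM replicates 2 to 4 and at the RP level or above in replicate 1. Pkp1, a desmosomal plaque protein, was at 160, 71.4, 109 and 69.4 CPM in RP lines, 180 CPM in RPM replicate 1 and 0.748, 0.118 and 0.495 CPM across RPM replicates 2 to 4 (log2 change without replicate 1 -6.09, SE 0.35, limma adjusted p = 0.00267). Dsp, which links desmosomes to keratin, was at 1302, 794, 457 and 530 CPM in RP lines, 1251 CPM in RPM replicate 1 and 49.2, 11.6 and 7.68 CPM in the others (log2 change -5.33, SE 0.62, limma adjusted p = 0.0141). In both, RPM replicate 1 lay at or near the top of the RP lines. Lad1, an anchoring filament protein, and S100a14, a calcium-binding protein of epithelia, were at most 0.249 CPM in RPM replicates 2 to 4, while RPM replicate 1 held 61.0 and 45.9 CPM.

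Of 37 listed genes of epithelial adhesion and keratins, 36 had a negative log2 change, over 8 as over 7 lines. The median was -1.47 over 8 lines, -2.06 over 7 and -0.81 when RPM replicate 2 was left out of the 8. Over 8 lines limma called 0 of them. At an unadjusted p under 0.05, 5 were lower (13.5%, against 8.34% of all genes) and 0 higher. Over 7 lines limma called 4: Dsp, the tight junction protein Cldn7, and the epithelial regulators Grhl2 and Esrp2. RPM replicates 2 to 4 lay below every RP line at 18 of the 37 (48.6%, against 10.9% of all genes), and with RPM replicate 1 included this held for 0. The list's mean level was 6.21, 6.23, 5.57 and 5.60 on the log2(CPM + 1) scale in RP replicates 1 to 4, 6.54 in RPM replicate 1 and 3.09, 4.47 and 4.08 in RPM replicates 2 to 4. Without RP replicate 4, 20 of the 37 lay below every RP line over the lines left without RPM replicate 1. Over the same lines the count among the 14331 genes that could be named went from 1567 to 1914.

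The keratin Krt8 and E-cadherin shared this order without passing the test. Krt8 was at 313 to 610 CPM in RP lines, 1077 CPM in RPM replicate 1 and 26.8, 153 and 119 CPM across RPM replicates 2 to 4 (limma adjusted p = 0.0705 without replicate 1). Cdh1, E-cadherin, was at 641 to 1123 CPM in RP lines, 846 CPM in RPM replicate 1 and 35.3, 346 and 198 CPM in the others (limma adjusted p = 0.111). RPM replicate 2 was the lowest line for both genes. Krt19 and Krt80 were among the genes of largest weight at the end of the second principal component where RPM replicate 2 lay. Krt8 is thus not taken to stand for all keratins. Zeb1, a repressor of E-cadherin, was at 98.9, 55.2 and 66.4 CPM across RPM replicates 2 to 4, at 6.76 CPM in RPM replicate 1 and at 0.120 to 29.2 CPM in RP lines (limma adjusted p = 0.196). Of 16 listed mesenchymal factors and markers, 0 were called by limma over 8 or 7 lines, with 0 higher and 1 lower over 8 and 2 and 2 over 7 at an unadjusted p under 0.05.

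A few channel and matrix genes fell over 7 lines. Of 59 listed voltage-gated and potassium channels, 4 fell over 7 lines, Kcnh8, Cacna1a and Cacnb3 among them, and 0 over 8 lines by limma, where 2 were higher and 8 lower at an unadjusted p under 0.05. Those 8 were 13.6% of the list, against 8.34% of all genes. Over 7 lines 6.78% of this list was called lower, against 1.28% of all genes, and 32 of the 59 changes were below 0 and 27 above. Cacna1a, the P/Q-type calcium channel, was at 162 to 288 CPM in RP lines, 275 CPM in RPM replicate 1 and 74.9, 88.9 and 73.0 CPM in the others. For L1cam, a neuronal adhesion molecule, RPM replicate 1 was likewise inside the RP range and the other RPM lines below it. L1cam was at 146 to 232 CPM in RP lines, 222 CPM in RPM replicate 1 and 34.0, 86.2 and 48.4 CPM across RPM replicates 2 to 4. Of 37 listed matrix and integrin genes 3 fell over 7 lines, Col18a1 and Itga3 among them (8.11%, with 20 changes below 0 and 17 above), and for Col18a1 RPM replicate 1 also lay below every RP line. Of 25 neuroendocrine lineage factors, Tlx3 fell over 8 lines, and also Hes6, which promotes neuronal differentiation, and Eya1, a factor of endocrine and sensory organs, over 7. These were 12% of the list over 7 lines, against 1.28% of all genes. The list's median log2 change was -0.34 over 8 lines and -0.15 without RP replicate 1. Its mean level was 5.67 to 6.16 on the log2(CPM + 1) scale in the 4 RPM lines and 6.29 to 6.47 in the RP lines. The single marker of another cell type to be called was the endothelial Vwf, at 11.4 to 89.2 CPM in RP lines, 34.3 CPM in RPM replicate 1 and 0.124 to 1.87 CPM in the others.

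Among the higher genes, 10 of the 77 had replicate 1 below the RP mean and 17 had it inside the RP range. Dlk1, an imprinted NOTCH-like ligand of endocrine progenitors, was at 0, 3.01, 5.00 and 12.3 CPM in RP lines, 1.28 CPM in RPM replicate 1 and 573, 86.2 and 251 CPM across RPM replicates 2 to 4 (log2 change without replicate 1 5.78, SE 0.93, limma adjusted p = 0.0329). Its level was far higher in RPM replicate 2 than in RPM replicate 3. Lrp2, the endocytic receptor megalin, was at 0.120 to 2.12 CPM in RP lines, 4.34 CPM in RPM replicate 1 and 382, 21.5 and 32.1 CPM in the others. Hmga1b was called too, but it is a near copy of Hmga1 and reads of the pair could be split by the counting.

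Some peptide hormone and granule genes moved in the same lines without passing the test. Calca, which encodes calcitonin, was at 1039, 916, 948 and 2379 CPM in RP lines, 832 CPM in RPM replicate 1 and 3428, 12560 and 5302 CPM across RPM replicates 2 to 4 (log2 change without replicate 1 2.34, limma adjusted p = 0.0721). Scg2, a secretory granule protein, was at 507, 605, 579 and 1469 CPM in RP lines, 578 CPM in RPM replicate 1 and 2166, 6200 and 2302 CPM in the others (limma adjusted p = 0.0798). For both, RP replicate 4 was the highest RP line and RPM replicate 3 the highest of all. The 12 C cell markers, which include both genes, did not move together. Without replicate 1 their median log2 change was 0.08, with 7 changes above 0 and 5 below. Of 23 listed granins and processing enzymes, 0 were called by limma over 8 or 7 lines. At an unadjusted p under 0.05, 4 and 7 were higher and 0 lower. Over 8 lines the higher ones were 17.4% of the list, against 7.56% of all genes. The median log2 change was 0.66 and 0.89, and was 0.33 without RPM replicate 3 and 0.38 without RP replicate 1.

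Lysosomal and antigen presentation genes also held upward calls. Of 58 lysosome and V-ATPase genes, Atp6v0e, a proton pump subunit, rose over 8 lines and also Ctsf, a cathepsin, and Galns, a sulfatase, over 7; the median log2 change was 0.19 and 0.27. In this list 15 of the 46 windows (32.6%) held the E-box, against 10.2% of all windows and 11 of 36 (30.6%) in the small-subunit list. Erap1 and Psmb10, a peptide-trimming enzyme and an immunoproteasome subunit, rose over 7 lines among 20 class I presentation genes, with all 4 RPM lines above every RP line for both. Over 7 lines 5.17% of the lysosomal and 10% of the class I genes were called higher, against 0.536% of all genes. All 4 RPM lines lay above every RP line at 6.9% and 20% of these lists, against 4.97% of all genes. They lay below at 0% and 5%, against 4.39%. B2m, the class I light chain, was at 18.2 to 46.2 CPM in RP lines and at 22.97, 34.9, 195 and 413 CPM across RPM replicates 1 to 4, so it lay above the RP lines in RPM replicates 3 and 4 and not in 1 and 2, and it did not pass (limma adjusted p = 0.157 over 7 lines).

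Metabolic and proliferation lists held few calls, against a background of 0.334% and 1.82% of genes called in either direction over 8 and 7 lines. By limma, 0 members were called over 8 or 7 lines among 74 oxidative phosphorylation genes (6 higher and 0 lower at an unadjusted p under 0.05 over 8 lines), 33 genes of the ATF4 stress response (1 and 1), 31 p53 targets (1 and 2), 27 genes of serine and one-carbon metabolism (8, or 29.6% against 7.56% of all genes, and 0) and 21 YAP and TAZ targets (0 and 4). At that p, 7.56% of all genes were higher and 8.34% lower over 8 lines. The higher oxidative phosphorylation genes were 8.11% of their list. The lower genes of the ATF4, p53 and YAP and TAZ lists were 3.03%, 6.45% and 19%. Ccnb1, the mitotic cyclin, was the member called over 7 lines among 56 replication and mitosis genes, and Slc2a3, a glucose transporter, among 32 genes of glycolysis and MLX targets. Of the replication and mitosis genes 2 lay above every RP line in all RPM lines, and 16 did without RP replicate 4, when the count over all genes went from 714 to 1106. Srebf2, the main activator of cholesterol synthesis, was at 356 to 428 CPM in RP lines, 304 CPM in RPM replicate 1 and 118, 196 and 228 CPM in the others, and fell over 7 lines, while no other gene of 36 in its list was called over 8 or 7 lines. Of the Notch pathway (31 genes), Dlk1 rose and Hes6 and Lfng fell over 7 lines. Gbp7 rose over 7 lines among 28 interferon-stimulated genes, and Cdkn1c was the gene called among 17 cell cycle inhibitors and, with Dlk1, among 37 imprinted genes.

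**Figure D5:**
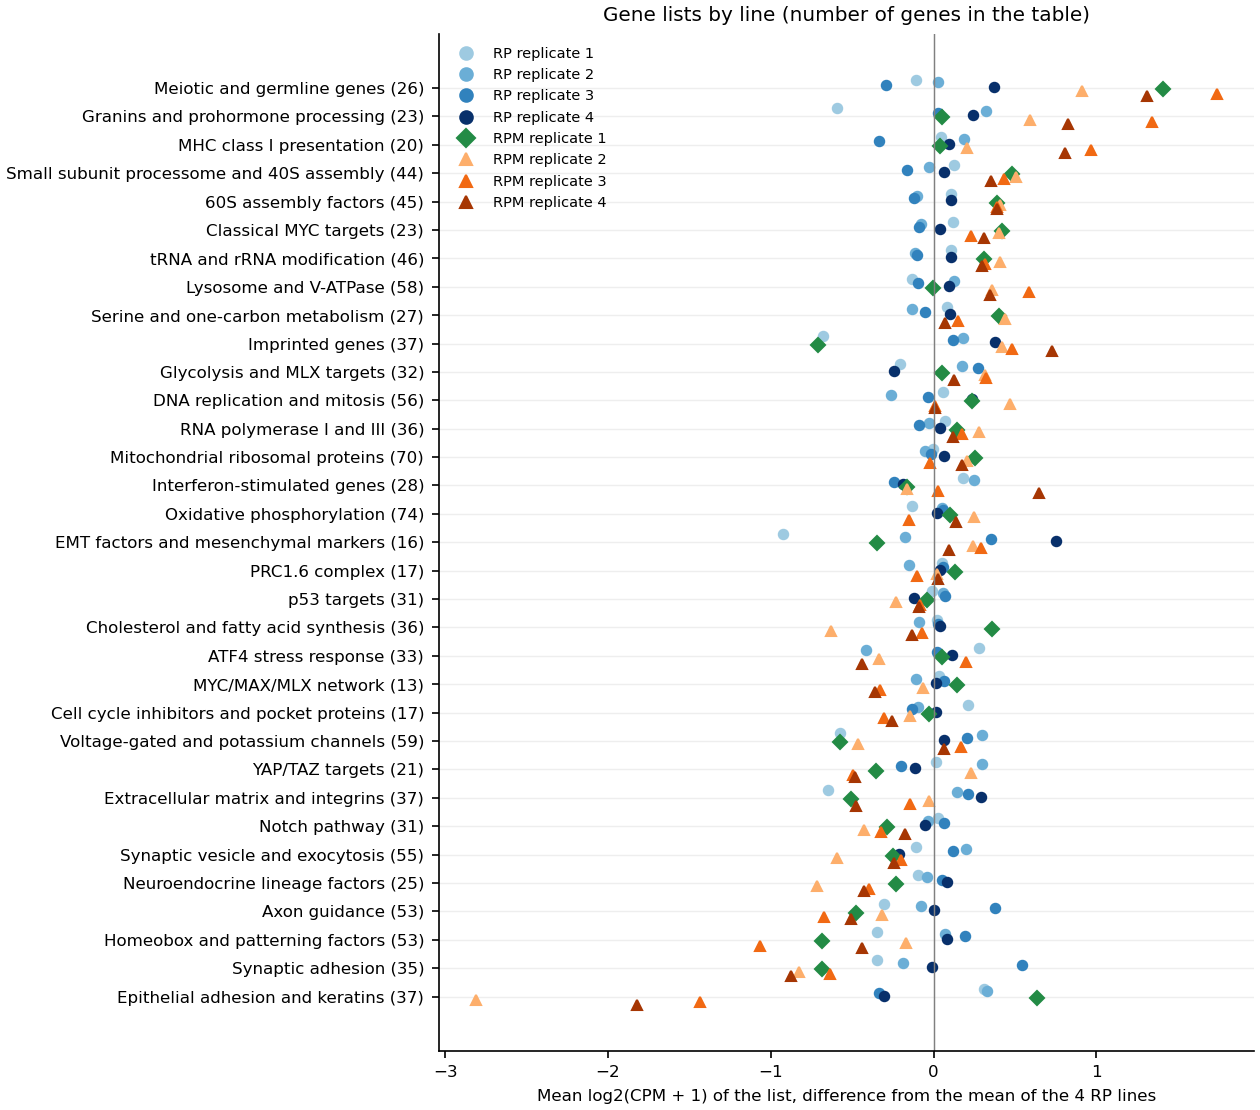
Mean log2(CPM + 1) of each gene list in each line, as the difference from the mean of the 4 RP lines, with the number of listed genes in brackets and the lists ordered by the mean of the RPM lines. Germline genes silent in RP lines are listed only where an RPM line expresses them, which favours the RPM lines in that list. In the ribosome assembly lists all 4 RPM lines lie to the right of all RP lines; in epithelial adhesion and keratins RPM replicates 2 to 4 lie to the left of all RP lines and RPM replicate 1 to the right of them.

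Beyond the group difference, single lines had genes of their own. Genes at least 8-fold above every other line numbered 1, 4, 3 and 0 in RP replicates 1 to 4 and 0, 9, 0 and 0 in RPM replicates 1 to 4, and genes at least 8-fold below every other line numbered 10, 1, 0 and 0, and 3, 25, 2 and 0. RPM replicate 2 thus had the most. Gpr50, an orphan receptor related to the melatonin receptors, was in this line at 355 CPM against at most 2.12 CPM elsewhere, and its Spint1, a protease inhibitor of epithelia, was at 1.25 CPM against 55.2 to 100 CPM elsewhere. Fat1, a giant protocadherin, was at 0 in this line and at 502 CPM in RP replicate 1, the highest line.

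The 8-fold differences of RPM replicate 1 were all losses. Hoxc4 and Prdm16, a homeobox factor and a zinc finger regulator, were at 0.383 and 0.255 CPM in it and at 24.4 to 280 and 14.6 to 114 CPM in the other 7 lines. Its largest gains were Hecw1, a ubiquitin ligase, at 29.1 CPM against at most 4.63 CPM elsewhere, and Grm2, a glutamate receptor, at 112 CPM against at most 20.7 CPM. In RP replicate 1, the line closest to it by correlation, Pitx1, a pituitary and hindlimb factor, was at 1.08 CPM against 37.9 to 190 CPM elsewhere, so the pair was not alike in these genes. RP replicate 2 led in Myo5c, an epithelial myosin (152 CPM against at most 2.12 CPM), and RP replicate 3 in Igfbp2, a binding protein of insulin-like growth factors (80.6 CPM against at most 4.61 CPM).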

How the data were processed

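RNA-seq of 8 cultured thyroid tumour lines was analysed. The deposited values are CPM scaled by TMM, a signal per gene over 14360 listed genes (13152 coding), per the file headers. The submitters' processing notes name bcl2fastq 1.8.4, TopHat2 2.1.0, HTSeq 0.6.1 and edgeR and the build mm10; the sources used here do not state the filter on listed genes. All values (100%) were whole multiples of 1 read within 0.01 read, so reads were recovered for the count tests; an interval or a floor of 3 reads covers counting error only. The authors' 8 RPKM columns, fold changes, p-values and calls were not used.

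Main tests used limma 3.58.1 (R 4.3.3) on log2(CPM + 1), without weights or blocks, with Benjamini-Hochberg adjustment over all listed genes, two-sided, at 0.05; fold changes on this scale understate the change of low genes. The fits were made over 8 lines and over 7 without RPM replicate 1, and were checked on simulated data. Alternatives were edgeR 4.0.16, DESeq2 1.42.0, other pseudocounts, filters, scalings, array weights, a replicate block and each line left out. The genes named are the 12 of largest change in each direction among 8-line calls (at least 5 CPM in the higher group), the same among further 7-line calls (at least 20 CPM), up to 4 members of smallest p per list, the MYC, MAX and MLX network, markers, and the leading genes of each line; other genes named were chosen after their values were seen. Members and lists were chosen with earlier results of these data known. Symbols turned into dates (23) and shared symbols (6 rows) were not named. Promoters are from RefSeq (GRCm38.p6), matched by symbol for 11002 of 14331 genes; 14354 identifiers were found in GENCODE release 21 for mouse. The sources used here do not say whether counting used strand. Overlapping and antisense genes therefore cannot be told apart. Some genes that the rule names are not reported here.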

Additional observations from a re-analysis of the deposited data

Results flagged for a closer look

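Single lines stood apart from the other lines of their group in 22 of 208 groups tested. The value is the gap to the nearest line as a share of the range of the group, and was compared with Dixon's 95% critical value for 4 lines, which chance passes in about 1 group in 20. All 8 values of RPM replicate 1 come from genes named because they were called only without it, so that choice favours such gaps and their number says nothing against chance. It was the highest RPM line for Etl4 (0.928), Lad1 (0.946), Mycl (0.846), Pkp1 (0.912), Plch2 (0.855), S100a14 (0.997) and Syk (0.947), and the lowest for Dzip1l (0.915). RP replicate 4 was the highest RP line for Gm4969 (0.903), Slc2a3 (0.878) and the germline gene Tdrd1 (0.934).

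RP replicate 2 was lowest for Syk (0.920), the cholesterol and fatty acid synthesis list (0.856) and the PRC1.6 list (0.941), and highest for Mlx (0.870). RP replicate 1 was highest for Ly6h (0.896) and lowest for the matrix and integrin list (0.833) and the pituitary markers (0.955), with Pitx1 at 1.08 CPM there. RPM replicate 3 was highest for Myc (0.994), at 2.25 CPM, and for the follicular markers (0.945). RPM replicate 2 was lowest for the synaptic vesicle list (0.880) and highest for the tRNA and rRNA modification list (0.861).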

How the results depend on the processing

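The counts of calls depended on the tool and on single lines. Of the 24 genes per fit named for the largest changes, 0 changed direction in the settings run. Other named genes were not followed through all settings. List medians near 0 changed direction when 1 line was left out: PRC1.6, mesenchymal factors (-0.0706, and 0.182 without RPM replicate 1), cell cycle inhibitors, p53 targets, interferon-stimulated, cholesterol, glycolysis, matrix and imprinted genes. Over 8 lines the higher and lower genes numbered 1 and 2 in edgeR, 350 and 308 in DESeq2, 53 and 54 with array weights, and 0 to 77 and 0 to 184 over the fits without 1 line. The limma fits with 0 calls, which left out the third RP, the third RPM or the fourth RPM line, had 1469, 1805 and 1692 genes at an unadjusted p under 0.05. Over 7 lines they numbered 44 and 103 in edgeR, 602 and 882 in DESeq2, 187 and 349 with array weights, and 0 to 86 and 14 to 159 over the fits without 1 further line. Of the 48 calls over 8 lines, 3 were kept in edgeR and 48 in DESeq2, and of the 261 over 7 lines 145 and 257. The replicate block left 0 higher and 0 lower genes over 8 and over 7 lines (1097 and 1366, and 1048 and 1351, at an unadjusted p under 0.05). The numbers were not taken as a pairing: deviations of same-numbered lines correlated at 0.425, 0.0505, 0.00779 and 0.134, and 3 of the 8 lines, RP replicate 1 and RPM replicates 1 and 4, correlated best with their own number. Pseudocounts, filters and scalings left 38 to 59 calls over 8 lines and 218 to 264 over 7. Alternatives without RP replicate 4 and for the promoter shares were chosen after seeing the data.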

Other observations

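Several chromosomes were shifted as a whole in single lines. Over genes with a mean of at least 5 CPM, the median difference from the median of all 8 lines was -0.538 on the log2 scale for chromosome 8, -0.323 for chromosome 17 and 0.335 for chromosome 10 in RP replicate 2. It was 0.393 for the X chromosome in RP replicate 3, 0.317 for chromosome 12 in RPM replicate 2, and 0.334, 0.269 and 0.238 for chromosomes 13, 19 and 11 in RPM replicate 1. Rrp12, Rcl1, Klf9 and Tdrd1 lie on chromosome 19 and Mnt and Ftsj3 on chromosome 11. For chromosome 19 the medians of RPM replicates 2, 3 and 4 were 0.00291, 0.0150 and 0.0368, and for chromosome 11 they were -0.0199, -0.0190 and -0.0120.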
